A study of Oryctolagus cuniculus with 6 samples.

Results

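The genes of sterol and fatty acid synthesis were chosen by the wording of the array's own probe descriptions. A probe was taken where its description named hydroxymethylglutaryl-CoA, mevalonate, isopentenyl, farnesyl, squalene, sterol, fatty acid synthase, a fatty acid desaturase, stearoyl-CoA, acetyl-CoA carboxylase or the elongation of very long chain fatty acids. The rule found 82 probes of 46 genes, out of 22831 genes on the array. Each gene was represented by the probe with the highest mean intensity over the 6 arrays, and 44 of the 46 genes were bright enough to be tested. The wording also took in genes outside both pathways, among them the oxysterol-binding proteins, TRIT1 and COX10. HMGCS1 and FASN, early enzymes of the sterol and fatty acid paths, were looked for by name and were not analysed here for want of a probe so named.

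RNA came from 6-day-old blastocysts of New Zealand White rabbits, the stage just before the embryo attaches to the uterus. Vitrified embryos had been cooled very fast in dimethyl sulphoxide with ethylene glycol, frozen embryos had been cooled slowly in dimethyl sulphoxide, and both were thawed, moved into recipient females and collected as living embryos at day 6. Control embryos were untreated and of the same strain and age. Each of 6 two-dye arrays set 1 treated extract against 1 control extract, 3 arrays for each treatment, with the treated extract in Cy5 on replicates 1 and 3 and in Cy3 on replicate 2. Arrays of the same replicate number share their control extract by label, so the 2 treatments are not compared with independent controls. The labels describe no transfer of the control embryos, so cooling and transfer cannot be told apart. The extracts are of whole embryos, in which fewer cells of a type and less RNA per cell cannot be told apart.

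Cholesterol is built from acetyl-CoA through mevalonate and isoprenoid units to squalene, which is closed to a ring and trimmed to the final sterol. The membrane-bound factor SREBF2 switches on its genes when sterols run low, and the related SREBF1 does so mainly for fatty acid genes. Desaturases add double bonds to fatty acids and ELOVL enzymes lengthen them, which together set the make-up of membrane lipids and of the stored fat droplets that are plentiful in rabbit embryos.

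The array reads each gene through probes of 60 bases, and the sequences of the genes the results turn on are printed here as the array's files list them, because they show which readings are separate and which overlap. Capitals mark a run shared with another probe of the same gene, of at least 12 bases. The FDFT1 probe shown second shares 20 bases with its neighbour on the transcript.
FDFT1, probe A_04_P061112: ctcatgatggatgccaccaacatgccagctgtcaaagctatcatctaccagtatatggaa
FDFT1, probe A_04_P061114: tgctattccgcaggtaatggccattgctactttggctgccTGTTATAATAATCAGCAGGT
MSMO1, probe A_04_P096588: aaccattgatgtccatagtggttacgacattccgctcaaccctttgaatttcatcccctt
PMVK, probe A_04_P060732: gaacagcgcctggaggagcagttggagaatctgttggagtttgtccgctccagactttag

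The fatty acid genes follow. The later 2 ELOVL2 probes share 30 bases and the ELOVL4 probes share 20. The stearoyl-CoA desaturase 1 and desaturase-like probes share no run longer than 6 bases.
ELOVL2, probe A_04_P065377: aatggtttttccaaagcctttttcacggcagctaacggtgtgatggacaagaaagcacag
ELOVL2, probe A_04_P065378: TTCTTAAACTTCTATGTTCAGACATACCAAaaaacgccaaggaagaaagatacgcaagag
ELOVL2, probe A_04_P065379: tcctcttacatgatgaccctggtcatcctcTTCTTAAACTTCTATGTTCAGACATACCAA
ELOVL4, probe A_04_P050049: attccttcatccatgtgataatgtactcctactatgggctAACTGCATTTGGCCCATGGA
ELOVL4, probe A_04_P050047: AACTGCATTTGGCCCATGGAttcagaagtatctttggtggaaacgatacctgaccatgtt
SCD1 (LOC100346561), probe A_04_P039912: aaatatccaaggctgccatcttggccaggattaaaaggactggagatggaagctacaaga
SCD-like (LOC100357419), probe A_04_P049542: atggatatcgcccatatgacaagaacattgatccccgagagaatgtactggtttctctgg
FADS2, probe A_04_P061152: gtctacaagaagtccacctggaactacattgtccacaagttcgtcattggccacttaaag

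The array's files place the first FDFT1 probe at chromosome 2, bases 38160875 to 38160934, and the first ELOVL2 probe at chromosome 12, bases 4729518 to 4729577. The 2 desaturase probes lie on chromosome 18, at 48425113 to 48425172 for SCD1 (LOC100346561) and 48472127 to 48472186 for the desaturase-like gene. The second ELOVL2 probe of 60 bases spans 1321 bases of the genome and the second FDFT1 probe 1786, so both cross an intron in that annotation. The files give no position for the MSMO1 and FADS2 probes, and the genome build behind these positions is not given in the sources used here.

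None of the 44 tested genes of the set passed the test in vitrified embryos or in frozen embryos. The test was limma's moderated test with a Benjamini-Hochberg adjusted p under 0.05 over all 30761 tested probes. The fatty acid enzymes among the 44 were desaturases and elongases. ACSL6, a listed pathway gene outside the set, did pass in frozen embryos and is given below. Over all probes 0.0195% were called in vitrified and 0.185% in frozen embryos, and the count of 0 of 44 genes is near that background. The smallest adjusted p of a member was 0.191 in vitrified and 0.132 in frozen embryos, both for ELOVL2. By direction the called shares were 0.0195% higher and 0% lower in vitrified and 0.0878% higher and 0.0975% lower in frozen embryos. At an unadjusted p under 0.05, 1 gene lay higher and 4 lower in vitrified embryos, beside 9.98% and 7.39% of all tested probes. In frozen embryos 2 lay higher and 3 lower, beside 6.06% and 7.17%. Those counts are 5 of 44 for each treatment, beside 17.4% and 13.2% of all tested probes in either direction.

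The fitted changes of the 44 genes were small and centred on 0. Their median log2 fold change was 0.01 in vitrified embryos and -0.02 in frozen embryos, beside 0.01 over all tested probes in each. In vitrified embryos 23 of the 44 genes lay above 0, beside 51.3% of all probes, and the values ran from -0.42 to 0.41. In frozen embryos 18 lay above 0, beside 51.7% of all probes, and the values ran from -0.58 to 0.40. By array, 13.6% of the genes were above 0 on all 3 vitrified arrays and 18.2% below, beside 20.4% and 16.9% of all probes. On all 3 frozen arrays 15.9% were above and 6.82% below, beside 15.7% and 14.7%. On all 6 arrays 4.55% were above and 4.55% below, beside 5.54% and 4.62%, so such agreement is not particular to the set. The 95% interval of the log2 fold change lay wholly between -1 and 1 for 44 of 44 genes in each treatment, beside 96.9% of all probes and read on the brightest probe of each gene. Within -0.5 to 0.5 lay the intervals of 30 genes in vitrified and 31 in frozen embryos, beside 70.4% and 74.3% of all probes.

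**Figure D1:**
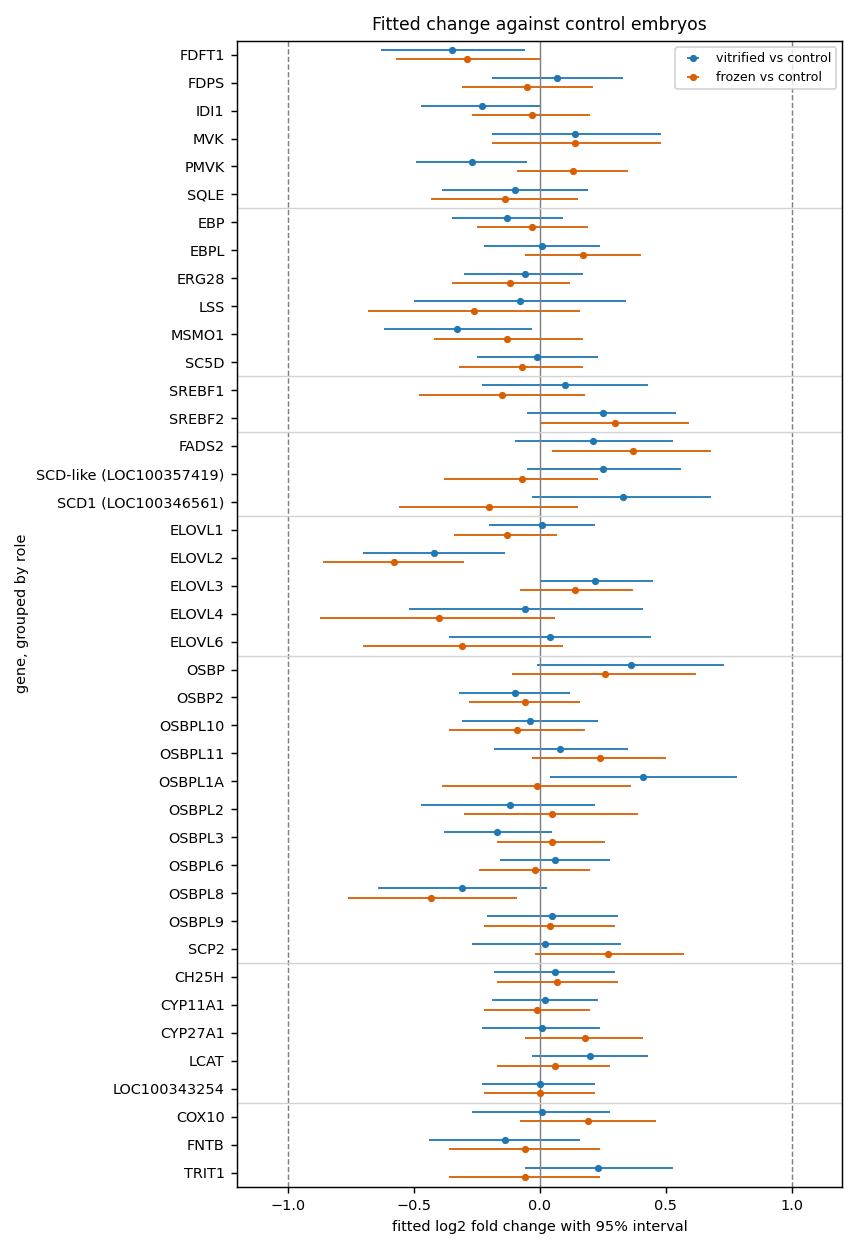
Fitted log2 fold change (horizontal axis) of 41 of the 44 tested genes against control embryos, grouped by role from top to bottom in the order of the text, with the 95% interval of the fit as bars, n = 3 arrays per treatment; dashed lines stand at -1 and 1. No interval shown reaches either dashed line. ELOVL2 and FDFT1 have their intervals below 0 in both treatments, that of FDFT1 in frozen embryos only just.

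Per array, 44.7% to 58.0% of green and 64.2% to 74.5% of red spot signals stood well above background. The label blastocyst was checked on markers, and 6 of 6 trophectoderm and 4 of 4 epiblast genes on the array were well above background in the control extract of all 6 arrays. Fat cell markers ADIPOQ and FABP4 were above background in none of the control extracts. Of the 4 leukocyte genes PTPRC was above background in 0, CD74 in 1 and CD14 and CD68 in 5 of 6 control extracts. Of the 5 genes of liver and steroid-forming tissue ALB was above background in 0, CYP17A1 in 3, CYP11A1, also a member of the set, in 5 and CYP7A1 and STAR in 6. The median log2 ratio of 7 endoderm genes was -0.35, 0.16 and 0.38 on the vitrified arrays and -1.28, -0.83 and -0.87 on the frozen arrays. TTR was above background on none. The log2 of the summed intensities of the 7 genes ran from 12.80 to 14.01 in control extracts. It ran from 12.90 to 13.30 in vitrified and from 11.97 to 12.69 in frozen extracts. Of these genes 1 passed the test, lower in frozen embryos (adjusted p = 0.0427 by limma). The median log2 ratio of 3 red blood cell genes was 1.78, 2.43 and 2.52 on the vitrified and 2.33, 0.47 and 0.53 on the frozen arrays. The log2 of their summed intensities ran from 11.43 to 13.33, 14.03 to 17.16 and 12.09 to 15.58 in the same order of groups. The median log2 ratio of 3 uterine genes was 0.15, 1.80 and 0.55 and then 0.38, 0.79 and 0.24. The log2 of their summed intensities ran from 10.48 to 11.86, 12.11 to 12.61 and 10.49 to 12.30. No red blood cell or uterine gene passed the test in either treatment. The part of these cells and secretions in the values below was not tested.

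**Figure D2:**
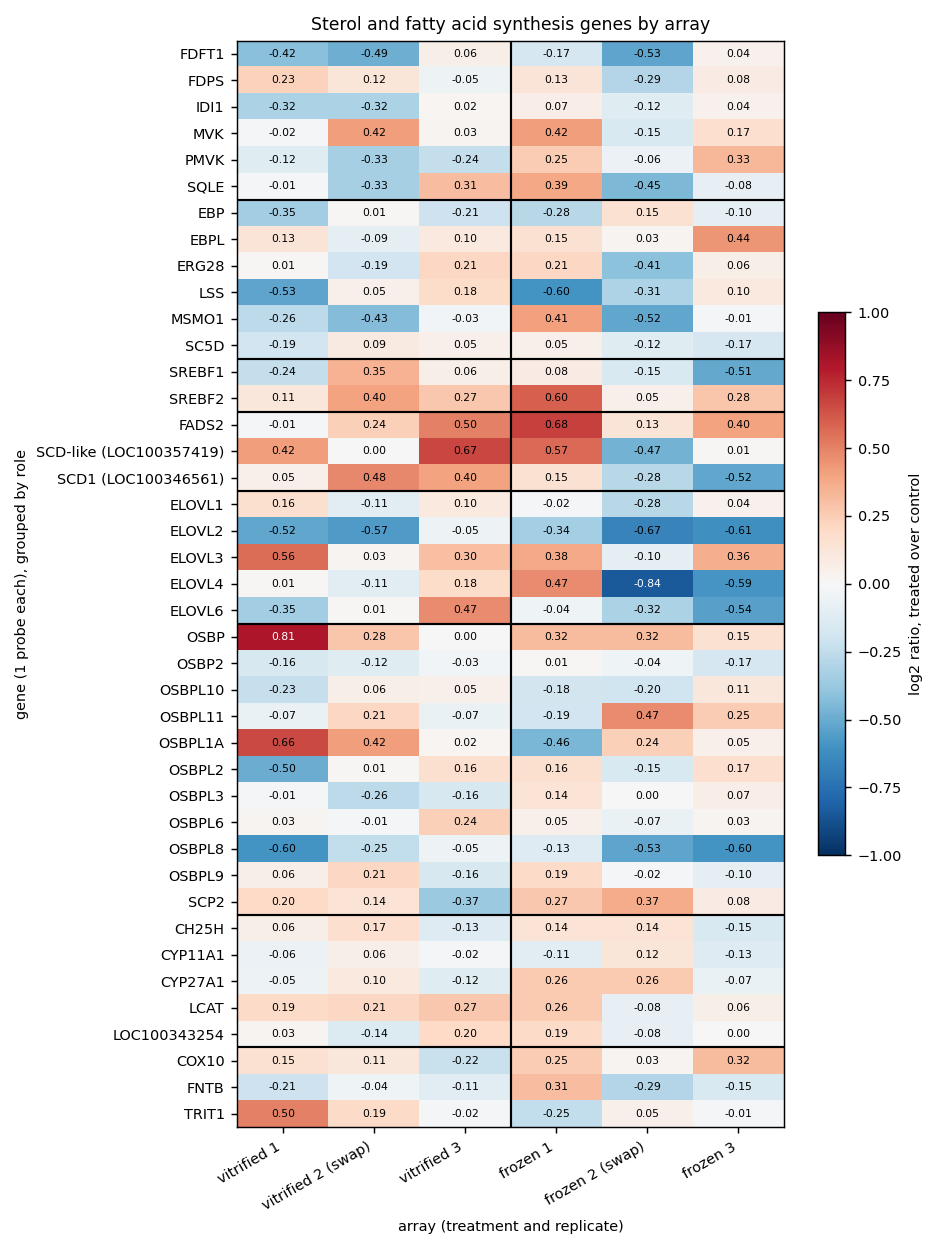
Log2 ratio of treated over control for 41 of the 44 tested genes (rows, 1 probe each, grouped by role) on each of the 6 arrays (columns), red for higher and blue for lower in the treated extract. OSBP on vitrified array 1, at 0.81, is the highest cell shown, and ELOVL4 on frozen array 2, at -0.84, is the lowest.

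The path through mevalonate to squalene epoxide was read by 7 genes, MVK, PMVK, IDI1, FDPS, FDFT1 and SQLE among them. Their median log2 fold change was -0.18 in vitrified embryos, with 5 of 7 below 0, and -0.03 in frozen embryos, with 4 of 7 below 0. The fit removes a dye term, so a fitted value is not the plain mean of its 3 arrays.

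FDFT1, squalene synthase, takes farnesyl units into the first step that serves sterols alone. Its log2 ratios were -0.42, -0.49 and 0.06 on the vitrified arrays and -0.17, -0.53 and 0.04 on the frozen arrays. Replicates 1 and 2 were below 0 and replicate 3 just above it, in both treatments, and replicates of the same number share a control extract. In the fit its change was -0.35 ± 0.12 (unadjusted p = 0.0226, adjusted p = 0.228 by limma) in vitrified embryos and -0.29 ± 0.12 (unadjusted p = 0.0483, adjusted p = 0.374) in frozen embryos. All 4 FDFT1 probes gave close values, from -0.40 to -0.33 and from -0.31 to -0.29, and without vitrified array 1 the brightest was at -0.21 in vitrified embryos.

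PMVK, phosphomevalonate kinase, gave log2 ratios of -0.12, -0.33 and -0.24 on the vitrified arrays and 0.25, -0.06 and 0.33 on the frozen arrays. Every vitrified array lay below every frozen array. The fitted change was -0.27 ± 0.09 in vitrified embryos, adjusted p = 0.227 by limma, and 0.13 ± 0.09 in frozen embryos, adjusted p = 0.612. SQLE, squalene epoxidase, a pace-setting enzyme of the path, ran at -0.01, -0.33 and 0.31 on the vitrified and 0.39, -0.45 and -0.08 on the frozen arrays. Those ranges overlap widely around 0, with fitted changes of -0.10 ± 0.12 and -0.14 ± 0.12. IDI1, which interconverts the isoprenoid units, was fitted at -0.23 ± 0.10 and -0.03 ± 0.10, and MVK, mevalonate kinase, at 0.14 ± 0.14 in each treatment. The probe described as FDPS, farnesyl diphosphate synthase, carries a gene number that the rabbit table gives to RUSC1, so its values of 0.07 and -0.05 stand under a name that the files do not settle.

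The steps from squalene epoxide to cholesterol were read by 7 genes, LSS, MSMO1, ERG28, EBP, EBPL and SC5D among them. Their median was -0.08 in vitrified embryos, with 6 of 7 below 0, and -0.07 in frozen embryos, with 5 of 7 below 0. MSMO1, which removes methyl groups from the ring, gave log2 ratios of -0.26, -0.43 and -0.03 on the vitrified arrays and 0.41, -0.52 and -0.01 on the frozen arrays. The 3 vitrified values were below 0, while the frozen values spread on either side of it. By the fit it stood at -0.33 ± 0.13 (unadjusted p = 0.0348, adjusted p = 0.256 by limma) in vitrified and -0.13 ± 0.13 in frozen embryos, and the second MSMO1 probe gave -0.37 and -0.20.

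LSS, lanosterol synthase, which closes the ring, was fitted at -0.08 ± 0.18 and -0.26 ± 0.18. The ring genes EBP and EBPL of the sterol isomerase family, the scaffold ERG28 and SC5D, ran from -0.13 to 0.01 in vitrified and from -0.12 to 0.17 in frozen embryos. The array's text for the SC5D probe speaks of a C4-methyl oxidase-like protein, so that name rests on its gene number.

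Taken as 14 genes of cholesterol synthesis, the values varied between arrays of the same treatment. The 14 include the scaffold ERG28, the EBP relative EBPL and the probe described as FDPS, whose gene is not settled. Their median log2 ratio was -0.12, -0.25 and 0.04 on vitrified arrays 1 to 3 and 0.18, -0.16 and 0.07 on frozen arrays 1 to 3. Below 0 were 11, 9 and 4 of 14 on the vitrified arrays and 3, 11 and 4 of 14 on the frozen arrays. The 2 arrays with swapped dyes, replicate 2 of each treatment, had the lowest median within their treatment, and the dye term of the fit is estimated by setting these arrays against the others. These 2 arrays also share a control extract by label, so dye and control extract cannot be told apart in them or in the dye term. The part of either in these medians was not tested. Over all tested probes the medians of the 6 arrays lay between -0.03 and 0.04.

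**Figure D3:**
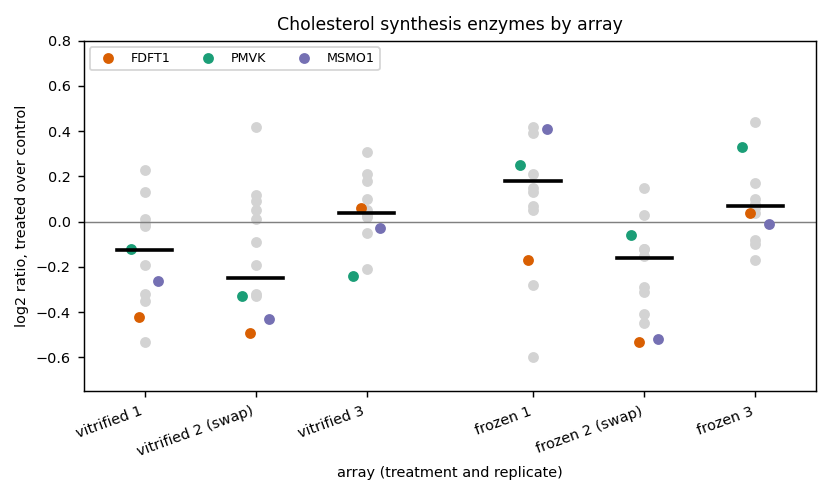
Log2 ratio of treated over control (vertical axis) for 12 of the 14 genes of cholesterol synthesis on each of the 6 arrays (horizontal axis). Each gene is 1 point, with FDFT1, MSMO1 and PMVK in colour and the median of all 14 as a black bar. The median bars run from -0.25 on vitrified array 2 to 0.18 on frozen array 1, and FDFT1 lies below the bar on 5 of the 6 arrays.

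SREBF2, the factor that switches on the cholesterol genes, gave log2 ratios of 0.11, 0.40 and 0.27 on the vitrified arrays and 0.60, 0.05 and 0.28 on the frozen arrays. All 6 values were above 0, as for 5.54% of all tested probes, and the treatments overlap. In the fit its change was 0.25 ± 0.13 in vitrified embryos (adjusted p = 0.358 by limma) and 0.30 ± 0.13 in frozen embryos (adjusted p = 0.379). The vitrified value was 0.00 without vitrified array 2 and the frozen value 0.16 without frozen array 1. SREBF1, which leans towards fatty acid genes, ran at -0.24, 0.35 and 0.06 and then 0.08, -0.15 and -0.51. Its values fall on both sides of 0 in each treatment, with fitted changes of 0.10 ± 0.14 and -0.15 ± 0.14.

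Desaturation was read by 3 genes. SCD1 (LOC100346561), stearoyl-CoA desaturase, makes oleate from stearate, and gave log2 ratios of 0.05, 0.48 and 0.40 on the vitrified arrays and 0.15, -0.28 and -0.52 on the frozen arrays. The vitrified values were all above 0, and frozen array 1 lies among them. By the fit it stood at 0.33 ± 0.15 in vitrified embryos (adjusted p = 0.319 by limma) and -0.20 ± 0.15 in frozen embryos (adjusted p = 0.633). These were 0.18 without vitrified array 2 and -0.06 without frozen array 2. The desaturase-like gene, whose position lies close by on the same chromosome, gave 0.42, 0.00 and 0.67 and then 0.57, -0.47 and 0.01. The frozen values overlap the vitrified ones and reach below them, and the fitted changes were 0.25 ± 0.13 and -0.07 ± 0.13.

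FADS2, the desaturase that opens the path to long polyunsaturated fatty acids, gave log2 ratios of -0.01, 0.24 and 0.50 on the vitrified arrays and 0.68, 0.13 and 0.40 on the frozen arrays. All 3 frozen values were above 0, and the treatments overlap. The fitted change was 0.21 ± 0.14 in vitrified embryos (adjusted p = 0.451 by limma) and 0.37 ± 0.14 in frozen embryos (unadjusted p = 0.0278, adjusted p = 0.308). All 3 desaturation genes had fitted values above 0 in vitrified embryos, at a median of 0.25, and none passed the test.

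Elongation was read by 5 genes, at a median of 0.01 in vitrified and -0.31 in frozen embryos, with 4 of the 5 below 0 in frozen embryos. ELOVL2, which lengthens polyunsaturated fatty acids on the way to docosahexaenoic acid, had the lowest fitted value of the 44 genes in each treatment. Its log2 ratios were -0.52, -0.57 and -0.05 on the vitrified arrays and -0.34, -0.67 and -0.61 on the frozen arrays. All 6 were below 0, as for 4.62% of all tested probes, with vitrified array 3 nearest to it. In the fit its change was -0.42 ± 0.12 in vitrified embryos, 0.747 of the control level (unadjusted p = 0.00908, adjusted p = 0.191 by limma), and -0.58 ± 0.12 in frozen embryos, 0.670 of the control level (unadjusted p = 0.00163, adjusted p = 0.132). The 2 other ELOVL2 probes, of which the printed sequences show a shared run of 30 bases, gave -0.29 and -0.34 in vitrified embryos and -0.54 and -0.19 in frozen embryos. They were well above background in 9 and 4 of 12 channel measurements, against 12 for the main probe. Leaving out any 1 array kept the fitted change between -0.55 and -0.31 in vitrified and between -0.64 and -0.50 in frozen embryos.

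ELOVL4, which makes very long chains, gave log2 ratios of 0.01, -0.11 and 0.18 on the vitrified arrays and 0.47, -0.84 and -0.59 on the frozen arrays. Frozen array 1 lay above all vitrified arrays and the other frozen arrays lay below them. The fitted change in frozen embryos was -0.40 ± 0.20 (adjusted p = 0.445 by limma), and the 5 ELOVL4 probes ran from -0.68 to -0.40, the lowest with an interval of -1.25 to -0.10. Leaving out frozen array 2 moved the fitted change to -0.16. ELOVL6, which lengthens palmitate to stearate, gave -0.35, 0.01 and 0.47 and then -0.04, -0.32 and -0.54. Its 3 frozen values were below 0 and overlap the vitrified ones, with fitted changes of 0.04 ± 0.17 and -0.31 ± 0.17 (adjusted p = 0.502). ELOVL1 was fitted at 0.01 ± 0.09 and -0.13 ± 0.09, and ELOVL3 at 0.22 ± 0.10 and 0.14 ± 0.10.

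Sterol binding and transport was read by 11 tested genes, the oxysterol-binding protein OSBP, its relatives and the sterol carrier SCP2, at medians of 0.02 and 0.04. OSBP, which carries cholesterol from the endoplasmic reticulum to the Golgi, gave log2 ratios of 0.81, 0.28 and 0.00 on the vitrified arrays and 0.32, 0.32 and 0.15 on the frozen arrays. None was below 0, and vitrified array 1 stood highest. By the fit it stood at 0.36 ± 0.16 in vitrified embryos (adjusted p = 0.293 by limma) and 0.26 ± 0.16 in frozen embryos. The probes of OSBP do not all say the same, since 3 of its 4 probes gave 0.36 to 0.38 in vitrified embryos and the other gave -0.09. Without vitrified array 1 the fitted change there was 0.14.

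OSBPL1A gave log2 ratios of 0.66, 0.42 and 0.02 on the vitrified arrays and -0.46, 0.24 and 0.05 on the frozen arrays. It had the highest fitted value of the 44 genes in vitrified embryos, at 0.41 ± 0.16 (unadjusted p = 0.0345, adjusted p = 0.256 by limma), and -0.01 ± 0.16 in frozen embryos. Without vitrified array 1 the vitrified value was 0.22. OSBPL8, which exchanges phosphatidylserine and phosphoinositides where the endoplasmic reticulum meets the cell membrane, gave -0.60, -0.25 and -0.05 and then -0.13, -0.53 and -0.60. All 6 values were below 0, as for 4.62% of all tested probes. Its fitted change was -0.31 ± 0.14 in vitrified embryos (adjusted p = 0.322 by limma) and -0.43 ± 0.14 in frozen embryos (unadjusted p = 0.0191, adjusted p = 0.267), with its 3 probes between -0.31 and -0.16 and between -0.53 and -0.43; its vitrified value was -0.15 without vitrified array 1.

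OSBPL3 gave log2 ratios of -0.01, -0.26 and -0.16 on the vitrified arrays and 0.14, 0.00 and 0.07 on the frozen arrays. The vitrified values lay at or below 0 and the frozen at or above it, with fitted changes of -0.17 ± 0.09 and 0.05 ± 0.09. SCP2 gave 0.20, 0.14 and -0.37 and then 0.27, 0.37 and 0.08. All 3 frozen values were above 0, with fitted changes of 0.02 ± 0.13 and 0.27 ± 0.13 (adjusted p = 0.412 in frozen embryos by limma). The second SCP2 probe gave -0.31 in vitrified embryos, so that value turns with the probe. The other 6 tested relatives, OSBP2, OSBPL2, OSBPL6, OSBPL9, OSBPL10 and OSBPL11, ran from -0.12 to 0.08 in vitrified and from -0.09 to 0.24 in frozen embryos.

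Sterol esterification and oxidation was read by 5 tested genes. They were LCAT, which esterifies cholesterol in plasma lipoproteins, CH25H and CYP27A1, which make oxysterols, CYP11A1, which cuts the cholesterol side chain for steroid hormones, and the dehydrogenase-like LOC100343254. Their fitted changes ran from 0.00 to 0.20 in vitrified and from -0.01 to 0.18 in frozen embryos, LCAT at 0.20 ± 0.10 and CYP27A1 at 0.18 ± 0.10 being the highest. No unadjusted p was under 0.05. Genes outside sterol synthesis that the wording brought in were COX10, TRIT1 and FNTB, which attach isoprenoid groups to haem, to transfer RNA and to proteins. Their fitted changes ran from -0.14 for FNTB to 0.23 for TRIT1 in vitrified embryos and from -0.06 to 0.19 for COX10 in frozen embryos. OSBPL7 was well above background in 0 of 12 channel measurements and the cholesterol acyltransferase SOAT2 in 2 of 12, so neither was tested. Of the 46 genes, 32 were well above background in all 12.

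Where vitrified embryos were set against frozen embryos, no gene passed the test, neither among the 44 nor among all 30761 probes, of which 0% were called and 7.54% had an unadjusted p under 0.05. Among the 44 genes 3 had an unadjusted p under 0.05, 1 higher in vitrified embryos, beside 4.06% of all probes, and 2 lower, beside 3.48%. The median difference in log2 fold change was 0.00, 22 genes lay above 0, beside 53.3% of all probes, and the values ran from -0.59 to 0.53. PMVK differed by -0.40 ± 0.13 (unadjusted p = 0.0154, adjusted p = 0.593 by limma) and SCD1 (LOC100346561) by 0.53 ± 0.21 (unadjusted p = 0.0364, adjusted p = 0.648). For 42 of 44 genes, by the brightest probe of each, the 95% interval of the difference lay within -1 to 1, beside 95.3% of all probes, and for SCD1 (LOC100346561) it reached 1.02. All 5 elongation genes had a difference above 0 by the brightest probe, from 0.08 for ELOVL3 to 0.35 for ELOVL4, with no unadjusted p under 0.05. Another ELOVL2 probe gave -0.15, so the sign for that gene turns with the probe.

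Genes of the same pathways were also listed by name, 71 in all, some of which the wording had caught and which count as members only. Of the others, 45 were on the array with a symbol and 44 were tested. ACSL6, which activates long-chain fatty acids, was the only one of the 44 to pass, and it rose in frozen embryos. Its log2 ratios were 0.62, 1.09 and 0.75 on the frozen arrays and 0.29, 0.78 and -0.11 on the vitrified arrays. The fitted change was 0.91 ± 0.11 in frozen embryos (adjusted p = 0.0427 by limma) and 0.41 ± 0.11 in vitrified embryos (adjusted p = 0.186). The ACSL6 call was lost without any 1 of the frozen arrays (adjusted p from 0.0703 to 1) and without vitrified replicate 2 (0.114) or 3 (0.0809). It was also lost with an offset of 16, median centring, the deposited log ratio, no dye term or slide as a covariate, at adjusted p from 0.0628 to 0.207.

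At an unadjusted p under 0.05, 6 of these 44 genes lay higher and 4 lower in each treatment, beside 9.98% and 7.39% of all probes in vitrified and 6.06% and 7.17% in frozen embryos. In vitrified embryos the smallest p values after adjustment were those of INSIG2, which holds back SREBF factors, at -0.54 ± 0.12 (adjusted p = 0.161 by limma), OXSM, of mitochondrial fatty acid synthesis, at -0.54 ± 0.15 (0.186), and HACD2, a dehydratase of the elongation cycle, at 0.68 ± 0.19 (0.186). OXSM was at -0.30 without vitrified array 2, and HACD2 at 0.41 without vitrified array 1. INSIG2 gave -0.66, -0.59 and -0.25 on the vitrified arrays and 0.17, -0.38 and -0.17 on the frozen arrays, so its 3 vitrified values were below 0 and the treatments overlap. In frozen embryos ACSL5, another fatty acid activator, was at -1.02 ± 0.19 (adjusted p = 0.110). ACSL5 gave -1.05, -1.07 and -0.98 on the frozen arrays and -0.85, -0.07 and 0.22 on the vitrified arrays, all frozen values lying below all vitrified ones.

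Between treatments 1 of the 44 listed genes outside the set lay higher in vitrified embryos and 6 lower at an unadjusted p under 0.05. The shares of all tested probes were 4.06% and 3.48%. None of these 44 genes passed the test. ACSL1 differed by -0.61 ± 0.19 and ACSL6 by -0.50 ± 0.16, vitrified against frozen, each at an adjusted p of 0.593 by limma.

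Probes of the same gene mostly gave the same reading. Of the 44 genes, 16 had more than 1 tested probe, 52 probes in all, and the range among the probes of a gene had a median of 0.09 in vitrified and 0.08 in frozen embryos on the log2 scale. The widest ranges were 0.47 for OSBP in vitrified and 0.39 for ELOVL2 in frozen embryos. Probes of a gene fell on both sides of 0 for 6 genes in vitrified and 4 in frozen embryos. Among the 6 were OSBP and SCP2. Between treatments this held for 4 genes, ELOVL2 among them.

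**Figure D4:**
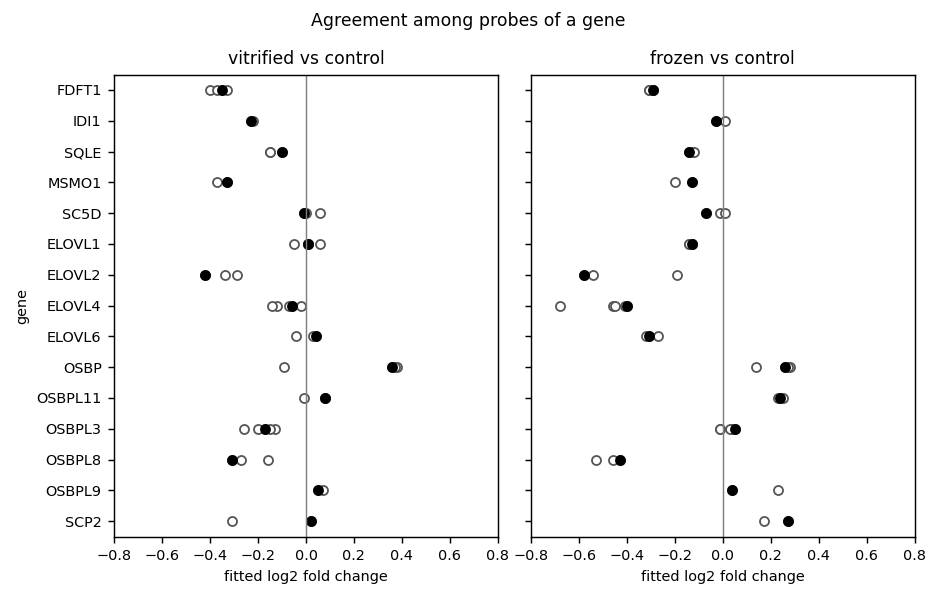
Fitted log2 fold change (horizontal axis) of every tested probe of 15 of the 16 genes with more than 1 probe, in vitrified embryos (left) and frozen embryos (right), with the brightest probe of each gene filled and the others open. The probes of FDFT1 fall together between -0.40 and -0.29 in both panels, while 1 OSBP probe at -0.09 stands apart from the other 3 in vitrified embryos.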

How the data were processed

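Total RNA, 100 ng per sample, was labelled with Cy3 or Cy5 and hybridised to 2-colour Agilent arrays, per the labels. The authors deposited intensity as the mean pixel signal of a spot, beside the local background median, made with Agilent Feature Extraction 10.10.1.1 (per the submitters' processing notes) and not normalised. The log10 ratio (red over green) that the authors deposited is the scanner software's own, per the file headers, and served as an alternative. The flags for signal well above background are also the deposited ones.

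Here, normexp correction with an offset of 50 and loess within arrays (control spots at weight 0) were done in limma 3.58.1 under R 4.3.3, with repeat spots averaged. Testing kept 30761 of 43603 probes, those well above background in 3 or more of 12 channel measurements. Precision is limited by the number of arrays. Log2 ratios of treated over control, turned for the swapped dye, were fitted with a coefficient per treatment and a dye term over all 6 arrays, leaving 3 residual degrees of freedom, with eBayes, and p values were adjusted by the Benjamini-Hochberg method over all tested probes. Vitrified against frozen was the contrast of both coefficients. The fit was also run on simulated data, drawn independently for each array with no dye effect and no shared control extract. That run therefore does not check the fit where arrays share a control extract or a dye effect.

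Genes were named by gene number, accession or description through RefSeq's rabbit genes (assembly mOryCun1.1). Of the probes, 22787 matched 1 gene, 138 several and 20678 none. Of the 82 probes of the set, 78 matched 1 gene, and the names SREBF1, SCD1, SCD-like, FDPS, FNTB and CYP11A1 rest on the array's own text. The members, roles and lists were chosen with earlier results of these data known. Values are given by array for the 5 highest and 5 lowest members in each comparison, for members past the test, and for SQLE, the SCD genes, SREBF1 and SREBF2. Some genes that this rule takes are not reported here. Listed pathway genes outside the set are named where called or among the 3 smallest p values. Some of these are not reported here either.

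Nothing says that the extracts came from separate litters or females, so the p values measure the spread between these samples. Arrays with the same replicate number share a control extract by label, and correlations of their deviations from the group means were 0.0202, 0.598 and 0.169 for replicates 1, 2 and 3. These deviations were not adjusted for dye, and replicate 2 has swapped dyes in both treatments. Its correlation therefore cannot tell a shared control extract from a shared dye effect. The arrays lay on 2 slides of 3, slide 1 with vitrified 1 and frozen 1 and 2. Alternatives changed the background, normalisation, filter, flags, dye term, replicate block, slide, spread, array weights and probe of a gene, or left out an array.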

Additional observations from a re-analysis of the deposited data

How the results depend on the processing

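For the genes of the set the count of 0 past the test held in all 3 comparisons under every alternative run but 1. The exception was array weights, which ranged from 0.362 to 2.85 with the highest weight on the 2 swapped arrays, and which called 3 genes in vitrified embryos, 6 in frozen embryos and 1 between treatments. Under it ELOVL2 passed in vitrified (-0.43, adjusted p = 0.0250 by limma) and frozen embryos (-0.59, adjusted p = 0.00454), and SCD1 (LOC100346561) passed in the comparison of treatments (0.72, adjusted p = 0.0351). The same weights called 3576, 5572 and 1137 of all probes. The median of the set in vitrified embryos, 0.01, became -0.07 with median centring, -0.03 with the deposited log ratio, 0.03 with array weights, and as low as -0.09 without 1 array. Within slides the median of the set was -0.02 (1 array) and 0.02 (2 arrays) for vitrified, and 0.00 (2 arrays) and 0.04 (1 array) for frozen embryos.

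Over all probes, 6 were called in vitrified embryos, and 0 with the deposited log ratio, with probes above background in all channels or with slide as a covariate, and from 0 to 16 without 1 array. In frozen embryos 57 were called, 3 with an offset of 16, 33 with median centring, 1 with the deposited log ratio, 8 without the dye term, 0 with slide as a covariate, and from 0 to 502 without 1 array. Among the listed pathway genes outside the set, alternatives were added after seeing the data. The 1 call in frozen embryos became 0 with an offset of 16, median centring, the deposited log ratio, no dye term or slide as a covariate, 10 with array weights, and from 0 to 2 without 1 array. Array weights called 7 of them in vitrified embryos and 6 between treatments. With the replicate number as a random replicate block, whose correlation was -0.1, 8 probes were called in vitrified, 61 in frozen embryos and 0 between treatments, and the replicate block changed no call of a named gene. The cause of these shifts was not tested.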
